A study of Homo sapiens with 6 samples.

Results

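The butyrophilin 2 and 3 genes were followed by RNA sequencing in Cal27, an established cell line from a human squamous carcinoma of the mouth. The cells carried a lentiviral knockdown of DAZAP1, which encodes an hnRNP-type protein that binds RNA and takes part in splicing and translation, or a negative control. The DAZAP1 knockdown group and the control group held 3 libraries each, all made from total RNA of the same line. No modification is stated beyond the lentiviral constructs, and the cells were grown in high-glucose medium with serum. The control is described in one place as empty vector and in another as a control sequence, the knockdown is a single construct as far as the labels tell, and neither the time after infection nor the independence of the cultures is stated. P-values therefore measure only the spread between these libraries. The family members were found by gene symbol: BTN2A1, BTN2A2, BTN3A1, BTN3A2 and BTN3A3, 5 of the 30947 genes in the deposited tables. All 5 passed the filter on low counts, which left 15374 genes. The set was chosen by symbol with the fold changes between knockdown and control in these libraries already known, so the levels and differences below are a description and carry no test.

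Butyrophilins are cell surface proteins of the immunoglobulin superfamily, and the genes of subfamilies 2 and 3 lie together on chromosome 6, beyond the class I end of the major histocompatibility complex. BTN2A1 and the BTN3A proteins form a complex on the surface of tumour and infected cells that activates one class of human gamma delta T cells. BTN3A1 binds small phosphorylated intermediates of isoprenoid synthesis (phosphoantigens) with its intracellular domain, and BTN2A1 contacts the T cell receptor from outside.

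The promoters were read first, because class I genes and butyrophilin genes are known to share the transactivator NLRC5, which is recruited by the RFX complex at an X box next to a CCAAT box bound by NF-Y. RefSeq promoters (250 bases before to 50 after the annotated start, GRCh38.p14) were at hand for 3 of the 5 genes, BTN3A2 with 2 starts and BTN3A3 and BTN2A1 with 1 each; those of BTN3A1 and BTN2A2 were not analysed here. The stretch from 120 to 21 bases before the start is shown for each, 5′ to 3′ on the plus strand, with capitals for the letters CAGCAAC, as in X boxes, and for CCAAT on either strand (ATTGG on the other). They lie at chr6:26365078-26365177, chr6:26440384-26440483 and chr6:26457835-26457934.
BTN3A2: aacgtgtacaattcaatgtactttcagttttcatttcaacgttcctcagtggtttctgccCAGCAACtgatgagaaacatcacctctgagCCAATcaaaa
BTN3A3: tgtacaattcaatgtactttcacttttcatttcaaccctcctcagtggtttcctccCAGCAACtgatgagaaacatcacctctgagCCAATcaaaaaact
BTN2A1: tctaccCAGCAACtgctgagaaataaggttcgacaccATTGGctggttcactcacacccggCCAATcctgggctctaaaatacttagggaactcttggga

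CAGCAAC began 60 bases before the start of BTN3A2, 64 before that of BTN3A3 and 114 before that of BTN2A1. CCAAT began 30 and 34 bases before the start of BTN3A2 and BTN3A3, and in BTN2A1 it was found 59 bases before the start and, on the other strand, 83 before it. Of the 35116 promoters in the table, 4.92% held the X-box letters on either strand and 34.6% held the CCAAT box. The X-box letters followed within 60 bases by the CCAAT box were found in 146 promoters (0.416%), 3 of the 4 butyrophilin promoters among them and none of the 7 class I pathway genes with a promoter in the table. All 7 of those held CCAAT, and none held these exact X-box letters. X boxes written in other letters were not searched, so class I promoters are not shown to lack one. The second BTN3A2 start held neither sequence. The letters TTTCNNTTT are part of the sequences that interferon regulatory factors bind. They began 99 bases before the start of BTN3A2, 103 before BTN3A3 and 189 before BTN2A1, there on the other strand. A further match began 39 bases after the start of BTN3A2 and 35 after that of BTN3A3. These letters were held by 10.5% of all promoters and by 3 of the 7 class I pathway genes. None of these motifs overlapped another, and all were searched on both strands. They were chosen after the promoters had been read, and a match in letters is no evidence of binding. The 250 bases before the start were 85.9% identical between BTN3A2 and BTN3A3, with 58 bases in a row the same, against 46.0% between BTN3A2 and BTN2A1 and 49.1% between BTN3A3 and BTN2A1.

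In the libraries themselves DAZAP1 averaged 72.9 ± 5.20 CPM (counts after scaling for library size) in the knockdown and 265.3 ± 10.9 CPM in the control (SD, n = 3 each), which puts the log2 fold change at −1.86 ± 0.038 (SE) (adjusted p = 1.67e-39 in edgeR's quasi-likelihood test). The totals were 16333542 to 17815862 counts per knockdown library and 18547236 to 18955230 per control library, of which the butyrophilin genes took 2791 to 2946 and 1752 to 1888. All 10 squamous epithelial markers searched were listed, with a summed level of 4720 to 4770 CPM in the knockdown and 4180 to 4320 CPM in the control. KRT5 gave the largest part of it (2143 CPM in the knockdown, 1504 CPM in the control). The markers did not move together, as 5 rose, 3 fell and 2 did not pass, where 26.9% of all genes tested rose and 27.4% fell. KRT17 was at 1.23 and SFN at −0.94 on the log2 scale, both named after their values were seen. Butyrophilins are also made by leukocytes. Of 13 leukocyte markers 7 were listed, and their summed level was 3.03 to 4.61 CPM in the knockdown and 2.35 to 3.49 CPM in the control. The pan-leukocyte gene PTPRC had 0, 0 and 1 counts in the knockdown and 2, 0 and 0 in the control. Of the 2 with enough counts to test, CD14 rose (log2 1.34, adjusted p = 0.000222) and ITGAM did not pass (adjusted p = 0.503). CD14 had 43, 44 and 31 counts in the knockdown, against 22, 11 and 17 in the control. The fibroblast markers, 4 of 7 listed, summed to 18.7 to 19.5 CPM in the knockdown and 10.2 to 13.5 CPM in the control. Of these 4, 3 rose (26.9% of all genes tested did) and LUM did not pass (adjusted p = 0.684). The endothelial markers, 4 of 5 listed, summed to 46.5 to 51.7 CPM in the knockdown and 13.9 to 16.7 CPM in the control, nearly all of it CDH5. PECAM1 had 4, 6 and 10 counts in the knockdown, against 0, 4 and 0 in the control. VWF went the other way, with 16, 4 and 16 counts against 26, 20 and 19, and did not pass (adjusted p = 0.112). The part of these sums in the butyrophilin values was not tested. In a bulk sample, more cells of a kind and more RNA per cell cannot be told apart.

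Each of the 5 genes was higher in all 3 knockdown libraries than in any control library. The same held for 29.5% of all genes tested, and it is no support for genes picked with these values known. BTN3A genes stood further from the control than BTN2A genes, with folds of 2.52 for BTN3A3, 2.14 for BTN3A1 and 1.78 for BTN3A2, against 1.39 for BTN2A2 and 1.21 for BTN2A1. In the whole-table fit 5 of 5 were past an adjusted p of 0.05 on the higher side, as were 26.9% of all genes tested. For the same reason that count is no support either. The median log2 fold change of the 5 was 0.835, and that of all genes tested was 0.0024.

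**Figure D1:**
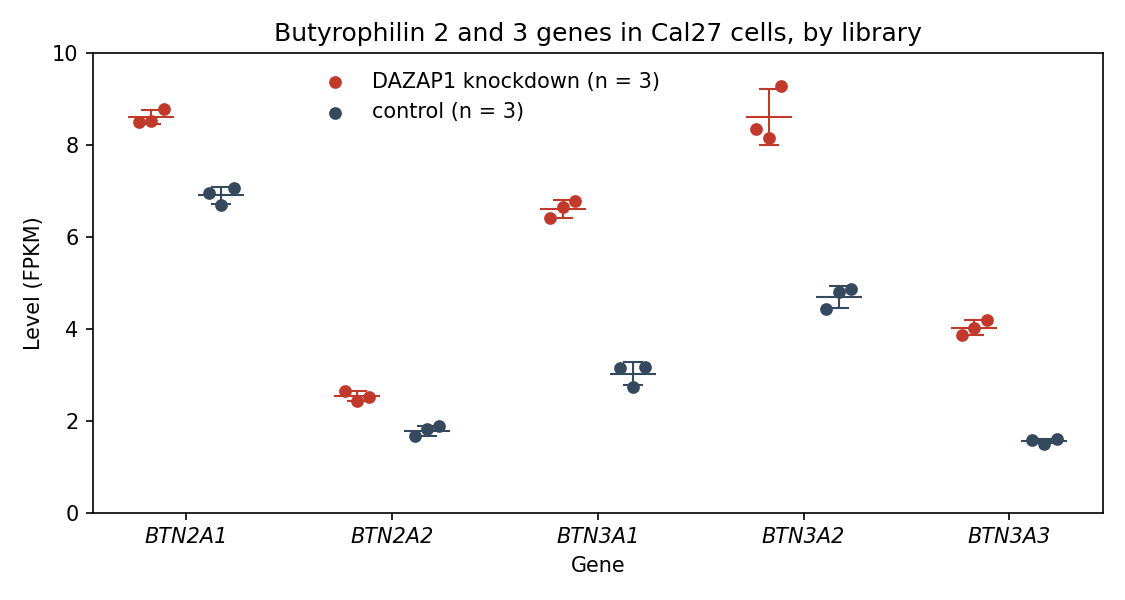
Level in FPKM (fragments scaled to gene length and library total; vertical axis, from 0) of each butyrophilin gene (horizontal axis) in the 3 DAZAP1 knockdown libraries (red) and the 3 control libraries (dark blue). Points are libraries, and lines with bars are means ± SD; the groups overlap for none of the 5 genes, and the gap is widest relative to the control for BTN3A3 (4.02 against 1.56 FPKM).

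BTN3A1, the phosphoantigen-binding member (chromosome 6, 26402237 to 26415208, GRCh38.p13, plus strand), had 6.40, 6.65 and 6.79 FPKM in knockdown libraries 1 to 3, against 3.15, 2.73 and 3.17 FPKM in control libraries 1 to 3. FPKM, deposited by the authors, is scaled to gene length and library total. The lowest knockdown value lay well above the highest control value, and control library 2 was the lowest of all 6. The counts behind them were 614 to 632 in the knockdown and 287 to 333 in the control. The log2 fold change from the counts was 1.09 ± 0.075 (SE).

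BTN3A2 (26365159 to 26378320), which lacks the intracellular domain that binds phosphoantigens and is known to assist BTN3A1 on its way to the surface, had 8.35, 8.15 and 9.29 FPKM in the knockdown, against 4.42, 4.79 and 4.87 FPKM in the control. Knockdown library 3 stood above the other two, and the SD in the knockdown, 0.609 FPKM, was the widest among the family. The counts were 972 to 1069 in the knockdown and 578 to 650 in the control, the most of the family in both groups. The log2 fold change was 0.84 ± 0.057 (SE).

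BTN3A3 (26440472 to 26453415) carries a similar intracellular domain that does not bind phosphoantigens, and it has been described as a restriction factor of avian influenza viruses. It had 3.87, 4.02 and 4.19 FPKM in the knockdown, against 1.57, 1.50 and 1.60 FPKM in the control. Both groups were tight, with SDs of 0.159 and 0.0495 FPKM. The counts were 385 to 390 in the knockdown and 161 to 171 in the control, and the log2 fold change was 1.33 ± 0.096 (SE). Of all genes tested, 97.1% had a lower log2 fold change than BTN3A3, 95.6% a lower one than BTN3A1 and 92.6% a lower one than BTN3A2.

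BTN2A1 (26457904 to 26476621), the partner that contacts the T cell receptor, had 8.51, 8.51 and 8.78 FPKM in the knockdown, against 6.95, 6.70 and 7.07 FPKM in the control. The groups did not overlap, and the step between them was small beside the level of the gene. The counts were 543 to 574 in the knockdown and 481 to 507 in the control, and the log2 fold change was 0.28 ± 0.068 (SE). Of all genes tested, 74.3% had a lower one.

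BTN2A2 (26383096 to 26394874), known in mice as an inhibitor of T cell activation, had 2.65, 2.44 and 2.52 FPKM in the knockdown, against 1.66, 1.81 and 1.87 FPKM in the control. It was the lowest of the 5 in the knockdown. The counts were 263 to 302 in the knockdown and 197 to 227 in the control, and the log2 fold change was 0.47 ± 0.099 (SE), with 83.7% of all genes tested lower.

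The order of the levels per length differed between the groups. In the knockdown it ran BTN2A1 (8.51 to 8.78 FPKM), BTN3A2 (8.15 to 9.29), BTN3A1 (6.40 to 6.79), BTN3A3 (3.87 to 4.19) and BTN2A2 (2.44 to 2.65), and only the ranges of BTN2A1 and BTN3A2 overlapped. In the control it ran BTN2A1 (6.70 to 7.07 FPKM), BTN3A2 (4.42 to 4.87), BTN3A1 (2.73 to 3.17), BTN2A2 (1.66 to 1.87) and BTN3A3 (1.50 to 1.60), with no neighbouring ranges overlapping. BTN3A2 thus stood level with BTN2A1 in the knockdown and below it in the control. BTN3A3 stood above BTN2A2 in the knockdown and below it in the control. This order and the shares below rest on the gene lengths used, 7043 bases for BTN3A2 and 3788 for BTN2A1, and not on the isoforms expressed. Without scaling to length, BTN3A2 was above BTN2A1 in the knockdown (59.8 against 32.2 CPM) and in the control (33.5 against 26.5 CPM). None of these genes is abundant in this line. BTN2A1 lay above 67.6% of all genes tested in the knockdown and 62.8% in the control, and BTN3A3 above 50.1% and 33.4%, by mean FPKM.

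The summed level of the 3 BTN3A genes was 18.6, 18.8 and 20.3 FPKM in the knockdown, against 9.15, 9.03 and 9.65 FPKM in the control, a ratio of means of 2.07. That of the BTN2A genes was 11.2, 11.0 and 11.3 FPKM in the knockdown, against 8.61, 8.51 and 8.94 FPKM in the control, a ratio of 1.28. BTN2A1 made up 28.3 ± 0.444% of the family's summed FPKM in the knockdown and 38.4 ± 0.588% in the control (SD, n = 3 each). BTN3A3 made up 13.3 ± 0.254% in the knockdown and 8.67 ± 0.164% in the control, and BTN3A1 21.8 ± 0.486% and 16.8 ± 1.11%. The share of BTN3A2 was barely separated, with 27.4 to 29.4% in the knockdown and 24.9 to 27.3% in the control, and that of BTN2A2 was 7.97 to 8.90% in the knockdown and 9.35 to 10.3% in the control.

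**Figure D2:**
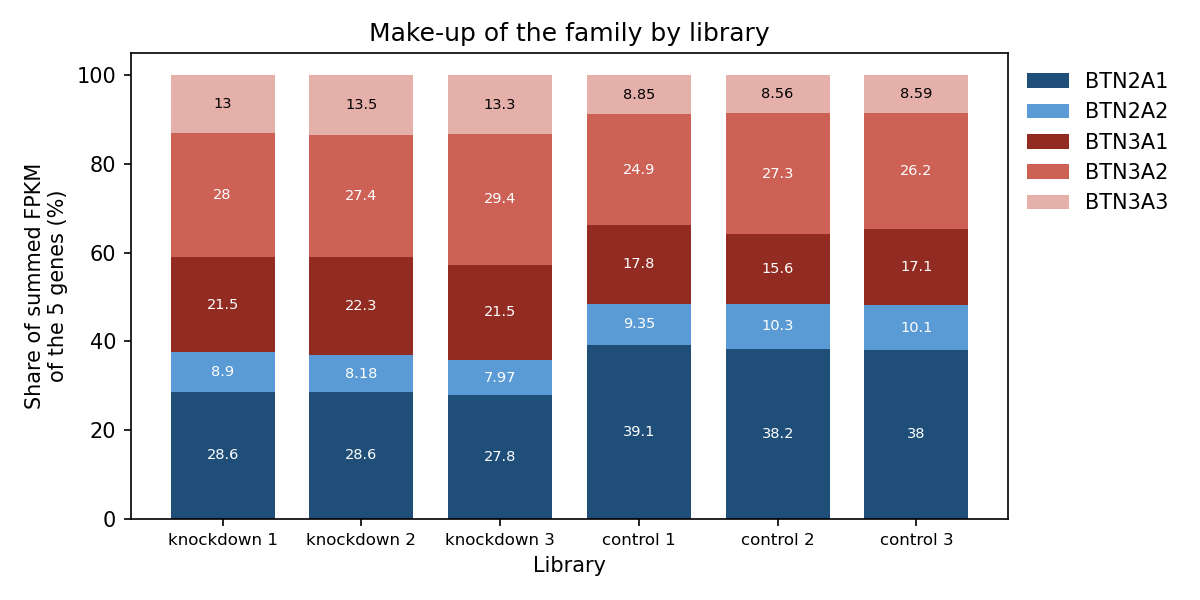
Share of each gene in the summed FPKM of the 5 butyrophilin genes (vertical axis, percent) in each library (horizontal axis, knockdown 1 to 3, then control 1 to 3), with each share printed in its segment. BTN2A1 holds 27.8 to 28.6% in the knockdown and 38.0 to 39.1% in the control, and the mean share of BTN3A3 is 13.3% in the knockdown and 8.67% in the control.

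Within a library, the ratio of BTN3A3 to BTN2A1 was 0.455, 0.472 and 0.477 in the knockdown, against 0.226, 0.224 and 0.226 in the control. That of BTN3A1 to BTN2A1 was 0.753 to 0.781 in the knockdown and 0.408 to 0.454 in the control. Both ratios separated the groups by far more than the libraries of a group differed. The ratio of BTN2A2 to BTN2A1 was nearer, with 0.286 to 0.311 in the knockdown and 0.239 to 0.271 in the control, and that of BTN3A1 to BTN3A2 was 0.730 to 0.816 in the knockdown and 0.570 to 0.713 in the control.

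Reads of these paralogs can be hard to place. Of the 50-base stretches in the annotated transcripts (GENCODE 29), 14.7% of those in BTN3A3 also occurred in another family gene, as did 12.7% in BTN3A2, 7.22% in BTN3A1, 4.89% in BTN2A1 and 2.50% in BTN2A2. BTN3A3 shared most with BTN3A2 (13.7%), and no stretch was shared between a BTN2A gene and a BTN3A gene. The sources used here do not say how the counting treated reads with several matches, so values within the BTN3A subfamily are uncertain to that extent. No other annotated gene overlapped any of the 5 on either strand.

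Along the chromosome the genes alternate, in the order BTN3A2, BTN2A2, BTN3A1, the pseudogene BTN2A3P, BTN3A3 and BTN2A1, all on the plus strand. Their differences alternated with them, at 0.84, 0.47, 1.09, 0.16, 1.33 and 0.28 on the log2 scale. BTN2A3P, which lies between BTN3A1 and BTN3A3, had 76, 93 and 86 counts in the knockdown, against 74, 92 and 80 in the control, and did not pass the test (log2 fold change 0.16 ± 0.17 SE; adjusted p = 0.433). The milk fat butyrophilin BTN1A1, further along, had no count in the knockdown and 0, 3 and 1 in the control. The groups could not be separated for either.

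**Figure D3:**
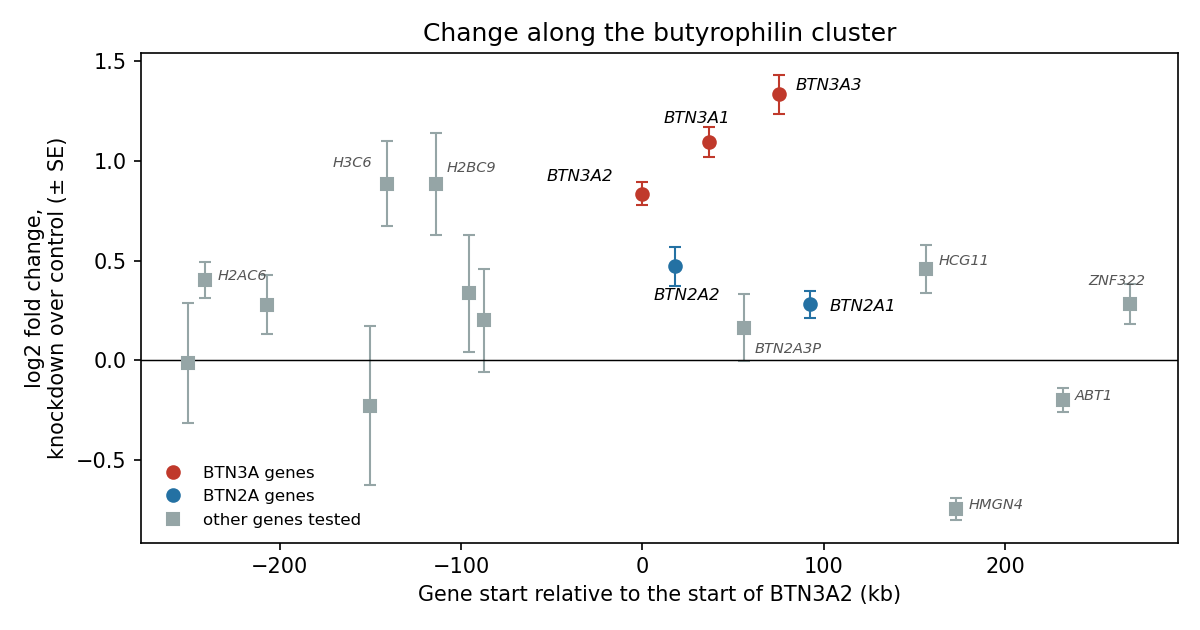
Log2 fold change, knockdown over control, with its SE (vertical axis) against the distance of each gene's start from that of BTN3A2 in kb (horizontal axis), for the BTN3A genes (red), BTN2A genes (blue) and the other genes tested within 250 kb (grey squares). The BTN3A genes lie at 0.84 to 1.33 and their BTN2A neighbours at 0.28 and 0.47, while HMGN4 lies at −0.75.

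Of the 34 other genes within 250 kb of the cluster 13 could be tested, and 5 rose and 2 fell (7 called, where 54.2% of all genes tested were; median log2 fold change 0.28). HMGN4, a nucleosome-binding protein gene, fell to 34.9 ± 1.11 CPM in the knockdown, against 58.5 ± 3.88 CPM in the control (SD, n = 3 each; log2 −0.75 ± 0.056 SE; adjusted p = 2.06e-19). The histone genes H2AC6 (0.40), H3C6 (0.89) and H2BC9 (0.88) rose, as did the long non-coding RNA HCG11 (0.46). H3C6 had 33 to 78 counts per library and H2BC9 had 20 to 54. The other histone genes tested did not pass: H3C8 (adjusted p = 0.344), H4C8 (0.539), H2BC4 (0.973), H2BC5 (0.0999) and H2BC8 (0.655). Of these, H2BC5 passed in 2 of 15 alternatives (adjusted p = 0.0148 to 0.399). ABT1, a nucleolar factor gene, fell by 0.20 on the log2 scale, a call that was lost with limma on FPKM (adjusted p = 0.0655 and 0.0642) and without control library 3 (0.0533), over a range of 0.000526 to 0.0655 in all 15 alternatives. ZNF322, named after its value was seen, was higher by 0.28 (adjusted p = 0.0127) with groups that overlapped, and it passed in 9 of 15 alternatives (adjusted p = 0.000506 to 0.111).

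Of the family relatives outside the cluster, ERMAP, the erythroid membrane butyrophilin-like gene, had 107, 102 and 103 counts in the knockdown, against 75, 99 and 68 in the control. It rose by 0.47 ± 0.16 on the log2 scale (SE; adjusted p = 0.0101), but with DESeq2 (0.0789) or without control library 3 (0.0785) it did not pass; its adjusted p was 0.00195 to 0.0789 over the 15 alternatives. BTNL9 had 18, 8 and 4 counts in the knockdown, against 5, 12 and 11 in the control (adjusted p = 0.762). BTNL10 and MOG had at most 1 count in any library, and BTNL2, BTNL3 and BTNL8 were not listed in the tables.

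Genes of the phosphoantigen route were described from lists of textbook partners. Of 5 partners of the complex 4 were tested, 3 rose (26.9% of all genes tested did) and 1 fell (27.4% did). ABCA1, a lipid exporter that also releases the phosphoantigen isopentenyl pyrophosphate, rose to 37.9 ± 1.20 CPM in the knockdown, against 8.01 ± 1.19 CPM in the control (SD, n = 3 each; log2 2.24 ± 0.089 SE; adjusted p = 1.12e-34). RHOB, a GTPase that associates with BTN3A1, had 862, 761 and 758 counts in the knockdown, against 1637, 1728 and 1643 in the control, and fell by 0.96 on the log2 scale. The plakin PPL, which binds the intracellular part of BTN3A1, rose by 0.24 and the microtubule protein MAP4 by 0.20. APOA1 had 1 count in all.

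The list of the mevalonate route held genes that make isopentenyl pyrophosphate and genes of later steps, among them FDPS, GGPS1 and FDFT1. Of 10 tested genes 7 rose (26.9% of all genes tested did), 1 fell (27.4% did) and 2 did not pass. The median log2 fold change was 0.37. Whether more isopentenyl pyrophosphate was made was not tested. Squalene synthase FDFT1 (0.49), farnesyl pyrophosphate synthase FDPS (0.41), mevalonate kinase MVK (0.43), the decarboxylase MVD (0.36) and ACAT2 (0.38) rose. The other phosphorylating enzyme PMVK, named after its value was seen, fell by 0.37. HMGCS1 (0.10) and GGPS1 (0.01) did not pass, with adjusted p = 0.0633 and 0.971; HMGCS1 passed in 6 of 15 alternatives (adjusted p = 0.00509 to 0.442) and IDI1, among the 7 that rose and named after its value was seen, in 10 (0.00275 to 0.151).

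Among known and candidate regulators of butyrophilin expression, 10 of 22 tested genes rose, 5 fell and 7 did not pass (median log2 fold change 0.08). Of all genes tested, 54.2% were called (26.9% higher and 27.4% lower). NLRC5 rose to 57.5 ± 0.397 CPM in the knockdown, against 38.8 ± 1.96 CPM in the control (SD, n = 3 each; log2 0.57 ± 0.054 SE; adjusted p = 6.02e-15). RFX5, a subunit of the RFX complex, rose by 0.46, while its partner RFXANK was at −0.01 (adjusted p = 0.895). The third subunit RFXAP, named after its value was seen, fell by 0.23 (adjusted p = 0.0482). RFXAP passed in 5 of 15 alternatives (adjusted p = 0.0238 to 0.167). RUNX1 (−0.218), PRKAA1 (−0.215) and CREB1 (−0.210), also named after their values were seen, fell too. Of NF-Y, NFYA was at −0.06 and did not pass (adjusted p = 0.311); NFYB rose by 0.29 and NFYC fell by 0.31, both named after their values were seen. IRF1 (0.37), an interferon pathway transcription factor gene, and the interferon gamma receptor chain IFNGR1 (0.43) rose, and STAT2 (0.00; adjusted p = 0.992), IRF9 (0.28; adjusted p = 0.499) and JAK2 (−0.22; adjusted p = 0.0951) did not pass. ZNF217, reported as a repressor of BTN3A, rose by 0.60, and its co-repressor CTBP1 was at −0.08 (adjusted p = 0.209). SPI1 was not listed in the tables and IRF8 had at most 7 counts.

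Class I genes that answer to NLRC5 were all on the higher side: 8 of 8 tested rose (26.9% of all genes tested did), with a median log2 fold change of 0.45. HLA-B (0.90), TAP1 (0.87), HLA-F (0.87), PSMB9 (0.51) and HLA-C (0.22) are among those with the smallest p. The log2 differences of BTN3A1 and BTN3A3 were above all 8 and that of BTN3A2 above 5 of them, while BTN2A1 lay within their range of 0.16 to 0.90. Whether the butyrophilin and class I changes differ was not tested.

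Other surface ligands that gamma delta or natural killer cells recognise moved in both directions. Of 11 tested, 5 rose (26.9% of all genes tested did), 4 fell (27.4% did) and 2 did not pass (median log2 fold change 0.42). ULBP1, a ligand of the receptor NKG2D, rose by 1.56 on the log2 scale and MICB, another, by 0.57, while MICA was at 0.04 (adjusted p = 0.489). ULBP3 fell by 0.55 and, named after their values were seen, ULBP2 fell by 0.30 and RAET1L by 1.21. Of the ligands of DNAM-1, PVR fell by 0.44 and NECTIN2 rose by 0.42. The adhesion molecule ICAM1 rose by 0.51. RAET1E, among the 5 that rose and named after its value was seen, passed in 8 of 15 alternatives (adjusted p = 0.0186 to 0.182). RAET1G did not pass (adjusted p = 0.0606) but did in 6 of 15 alternatives (0.0232 to 0.238).

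**Figure D4:**
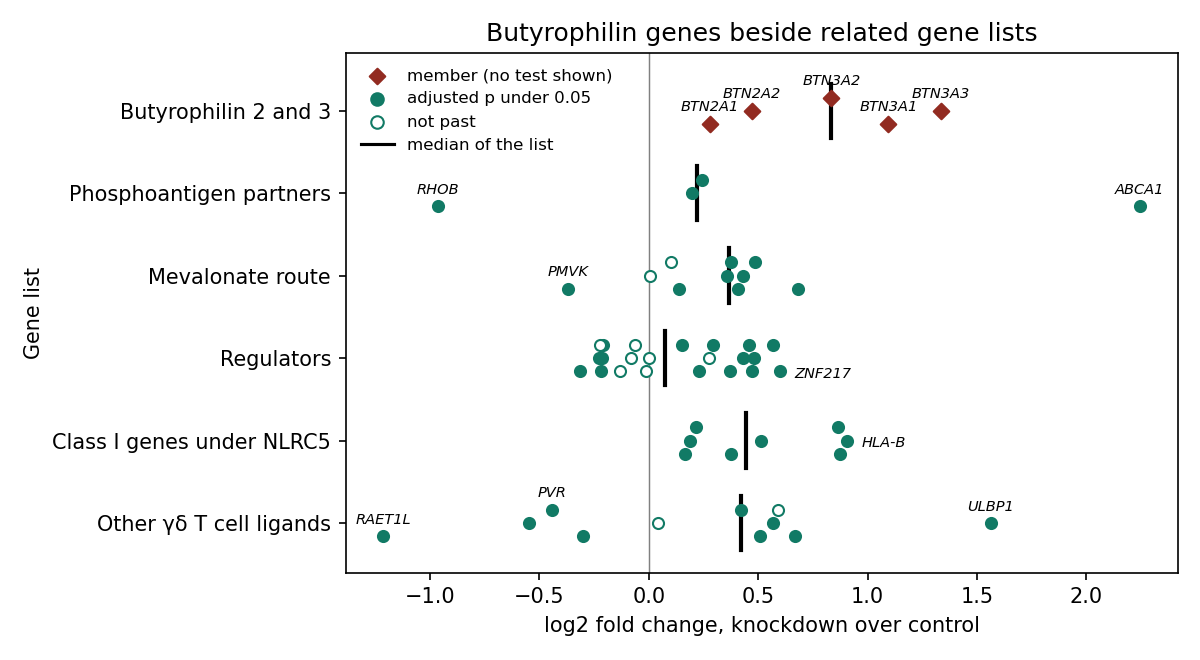
Log2 fold change, knockdown over control (horizontal axis), of the 5 butyrophilin genes and of the genes tested in 5 related lists (rows); diamonds are the butyrophilin genes, with no test shown, filled circles passed an adjusted p of 0.05, open ones did not, and black lines are list medians. The butyrophilin genes span 0.28 to 1.33 with a median of 0.835, beside medians of 0.22 for partners, 0.37 for the mevalonate route, 0.08 for regulators, 0.45 for class I genes and 0.42 for other ligands.

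For each gene the closest patterns were sought among 10625 other genes with a symbol and at least 5 CPM on average, by the root mean square difference of log2 CPM over the 6 libraries, each gene centred on its own mean. BTN3A3 lay nearest to the cytidine deaminase gene APOBEC3G (difference 0.0218), ZBED6CL (0.0314) and ASS1 (0.0452), and BTN3A1 to TENM2 (0.0522), FAM102B (0.0545) and the complement protease gene C1S (0.0546). BTN3A2 lay nearest to KREMEN2 (0.044), MDGA1 (0.054) and UBA7 (0.0544), the activating enzyme of ISG15. BTN2A1 lay nearest to TMEM184C (0.0133), MORF4L2 (0.0172) and NQO1 (0.0178), and BTN2A2 to NUDT16 (0.0292), SOS1 (0.0332) and the interferon regulatory factor IRF2 (0.0364). Nearness over 6 libraries in 2 groups largely means a like fold change, as for APOBEC3G (log2 1.35) beside BTN3A3 (1.33). Close neighbours are bound to turn up among so many candidates. Whether any of these genes share a regulator was not tested. Among the family itself, BTN2A1 and BTN2A2 were closest (0.117), followed by BTN3A1 and BTN3A3 (0.124), and BTN2A1 and BTN3A3 were farthest apart (0.522).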

How the data were processed

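For the 6 libraries the authors deposited raw counts per gene and FPKM. Per the table itself, the deposited FPKM are those counts divided by the library total and by a gene length that matched the exon union of GENCODE 29 to within 7 bases for the 5 genes. GRCh38.p13 and Bowtie are named in the submitters' processing notes, without role or version; the sources used here do not name the counter, its strand setting or its multi-mapping rule. Columns were matched to samples by prefix and number.

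The raw counts went through edgeR 4.0.16 in R 4.3.3: filterByExpr (minimum count 10), TMM scaling (factors 0.9875 to 1.013) and the robust quasi-likelihood F test of knockdown against control, with Benjamini-Hochberg adjustment over 15374 genes and a threshold of 0.05. The SE is the log2 fold change divided by the square root of F. The test was checked on simulated data. CPM use the scaled totals; depth per library sets the counting precision. The members and gene lists were chosen with earlier results of these data known. Named are the members, DAZAP1, up to 6 genes of each list by smallest p, list genes that did not pass, and the 3 nearest patterns per member; some list genes are not reported by name here. Promoters and 50-base stretches were searched with Python 3.11.15 and Biopython 1.88.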

Additional observations from a re-analysis of the deposited data

How the results depend on the processing

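Compared with the analysis above were DESeq2 1.42.0, scaling by upper quartile, by median of ratios or by library size alone, a stricter filter on low counts or none, limma 3.58.1 on log2(FPKM + 1) and log2(FPKM + 0.1), the replicate number as a block, and each library left out in turn. All 5 butyrophilin genes stayed higher in the knockdown in all 15, with log2 fold changes of 0.97 to 1.38 for BTN3A3, 0.92 to 1.14 for BTN3A1, 0.75 to 0.88 for BTN3A2, 0.35 to 0.52 for BTN2A2 and 0.26 to 0.33 for BTN2A1. The lowest values of the first 4 came from log2(FPKM + 1), which shrinks the change of low genes. Over all genes 6704 (DESeq2) to 8384 (upper quartile) were called, against 8339. In the list of relatives the single call became 0 with DESeq2, and 0 to 1 with a library left out. Near the cluster, 1 gene in place of 2 fell with limma on either FPKM scale and without control library 3. In the other lists, the number called in either direction, higher or lower, moved by at most 1.5 times. Whether equal replicate numbers mark paired samples is not stated. Same-number correlations (−0.0431 to 0.0332) lay within the span of the different-number ones (−0.0442 to 0.0822), which cannot decide it with 3 libraries per group. With the replicate block 8307 genes were called, and 5 of 5 butyrophilin genes, which is no support for genes picked with these values known. The counts of these genes, 161 to 1069 per library, set the precision of their values.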
